A study of Mus musculus with 18 samples.

Results

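The intestinal crypt is maintained by signals that mesenchymal cells beneath the epithelium secrete, and 9 genes of that signalling set were followed here: the R-spondins Rspo1, Rspo2 and Rspo3, the WNT ligands Wnt2b, Wnt4 and Wnt5a, the BMP ligand Bmp4, its antagonist Grem1, and the transcription factor Foxl1. They were taken by symbol from a table of 35976 gene symbols measured by RNA-seq in mouse colon, and each of the 9 was found once. WNT ligands bind Frizzled and LRP receptors on crypt cells and stabilise beta-catenin, and R-spondins strengthen that signal by binding LGR receptors and removing the ubiquitin ligases RNF43 and ZNRF3 that clear Frizzled from the surface. BMP ligands act against stem cell renewal and favour differentiation towards the gut lumen, and Gremlin 1 holds them off near the crypt base. Foxl1 marks subepithelial telocytes, mesenchymal cells that lie against the epithelium and secrete several of these signals in mice.

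Colon tissue was collected on day 2 after colitis was induced for 18 libraries in 3 groups of 6. The first group had TNBS colitis, an inflammation induced with a chemical hapten, and received ISM012-042, described as a gut-restricted PHD inhibitor, a class that blocks the prolyl hydroxylases that mark hypoxia-inducible factors for degradation. The second had TNBS colitis and received vehicle, and the third was sham. The sources used here give no strain, sex, age, dose or route. Nothing in the labels states that the libraries of a group are different animals, and p-values therefore reflect only how these libraries spread, which may be technical. Values are TPM, transcript abundance scaled for gene length to a sum of 1000000 in each library. They keep no read depth, so the depth is unknown and the precision rests on the 6 libraries of a group.

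Some libraries stood apart from the rest. ISM012-042 replicate 2 held the highest value of 6 of the 9 niche genes, and its 10 fibroblast markers summed to 3643 TPM, against 308 to 1047 TPM in the other 17 libraries. That library and vehicle replicate 2 also had the highest neutrophil marker sums of their groups, 7058 and 25290 TPM. Hoxb13, a homeobox gene of the distal hindgut, ranged from 0.33 to 288 TPM across libraries, and its log2(TPM + 1) exceeded 5 in 4 ISM012-042, 3 vehicle and 4 sham libraries. Mitochondrial transcripts took 20.1 to 57.8% of the TPM. In whole tissue, fewer cells of a type and less RNA per cell cannot be told apart.

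The niche genes covered a wide range of levels, and none of the 8 that could be tested across all genes passed between any of the groups. Rspo2, too low for that test, is described by a test of its own. Over all 18 libraries the mean level was 57.3 TPM for Grem1, 19.7 for Bmp4, 4.55 for Wnt5a, 3.53 for Rspo3, 3.37 for Wnt2b, 2.24 for Rspo1, 1.82 for Wnt4, 0.95 for Foxl1 and 0.20 for Rspo2. Several neighbours in that order were not apart library by library. Grem1 exceeded Bmp4 in 10 of 18 libraries, Rspo3 exceeded Wnt2b in 5 of 18 and Rspo1 exceeded Wnt4 in 11 of 18, so the order within these pairs was not the same from library to library. Bmp4 exceeded Wnt5a in 18 of 18 libraries, with ranges that did not overlap.

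**Figure D1:**
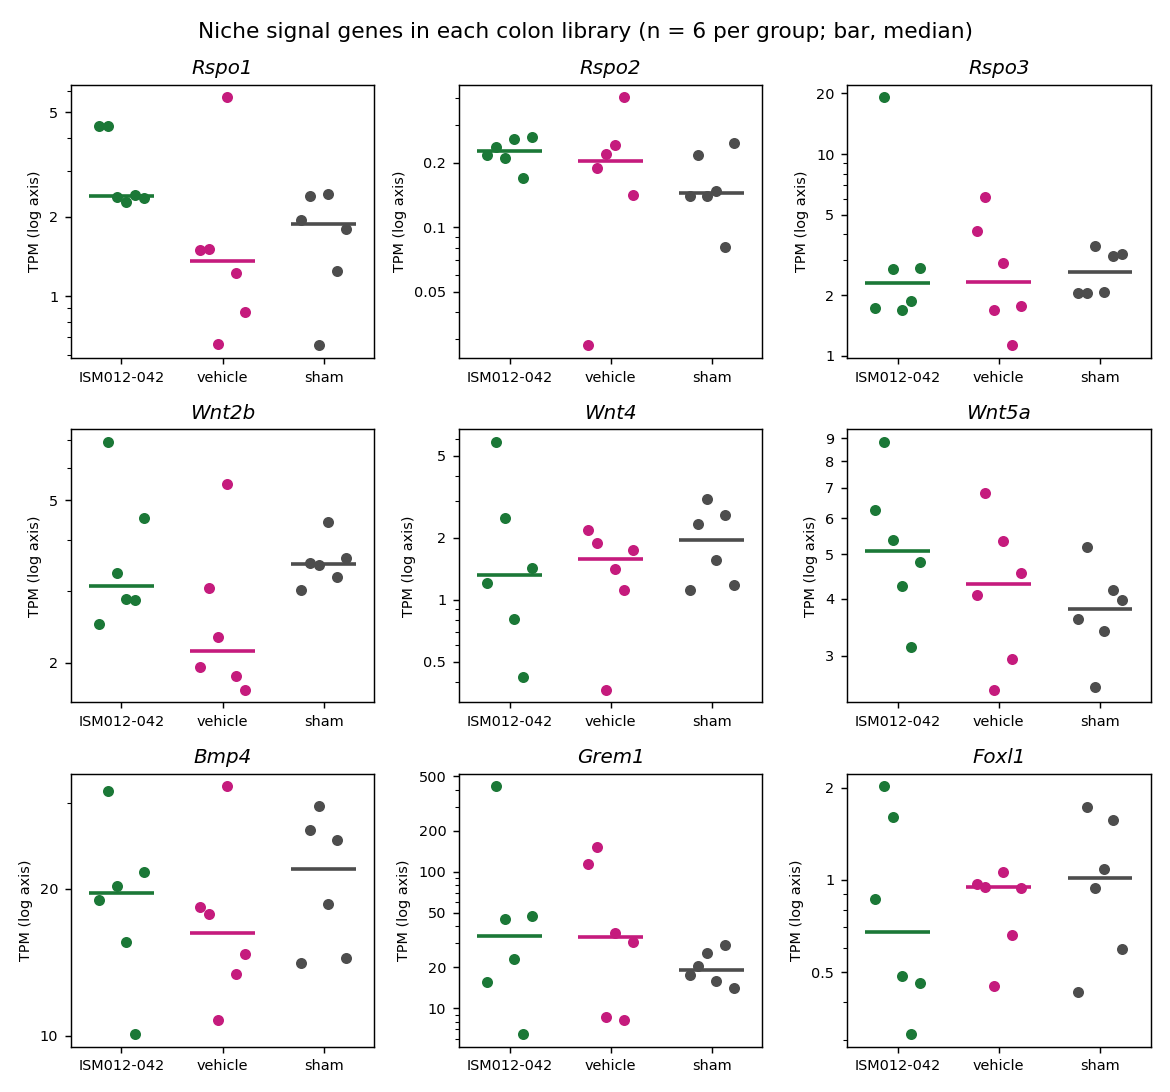
TPM of each niche gene in every library on a log axis, 1 panel per gene, with 6 libraries in each of the ISM012-042, vehicle and sham groups and a bar at the group median. The 3 groups overlap for all 9 genes, and Grem1 spans 6.43 to 423 TPM under ISM012-042 and 8.18 to 151 TPM under vehicle, against 14.1 to 29.1 TPM in sham.

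Differences were tested with limma on log2(TPM + 1), fitted over the 14129 genes that reached 1 TPM in at least 6 libraries. An adjusted p (Benjamini-Hochberg over all of them) under 0.05 was called. Of the 9 niche genes 8 reached that level, and Rspo2 did not. For vehicle against sham, 0 of 8 passed by limma and 0 had an unadjusted p under 0.05, where 4.46% of all tested genes passed (46 higher and 584 lower; 511 higher and 1004 lower with median-ratio scaling). Log2 fold changes were positive for 3 of 8 niche genes, with a median of -0.09 beside -0.067 over all genes. For ISM012-042 against vehicle, 0 of 8 passed and 1 had an unadjusted p under 0.05, where 0% of all genes passed and 2688 had such a p. All 8 log2 fold changes were positive in that comparison, with a median of 0.19 beside 0.30 over all genes, but with median-ratio scaling, which puts the median of all genes at 0.013, 2 of 8 were positive. For ISM012-042 against sham, 0 of 8 passed and 0 had an unadjusted p under 0.05, where 1.42% of all genes passed (77 higher and 123 lower; 144 higher and 628 lower with median-ratio scaling). There 5 of 8 were positive, with a median of 0.13 beside 0.22 over all genes, and 4 of 8 with median-ratio scaling. The comparisons share libraries, so their values are not independent of each other.

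**Figure D2:**
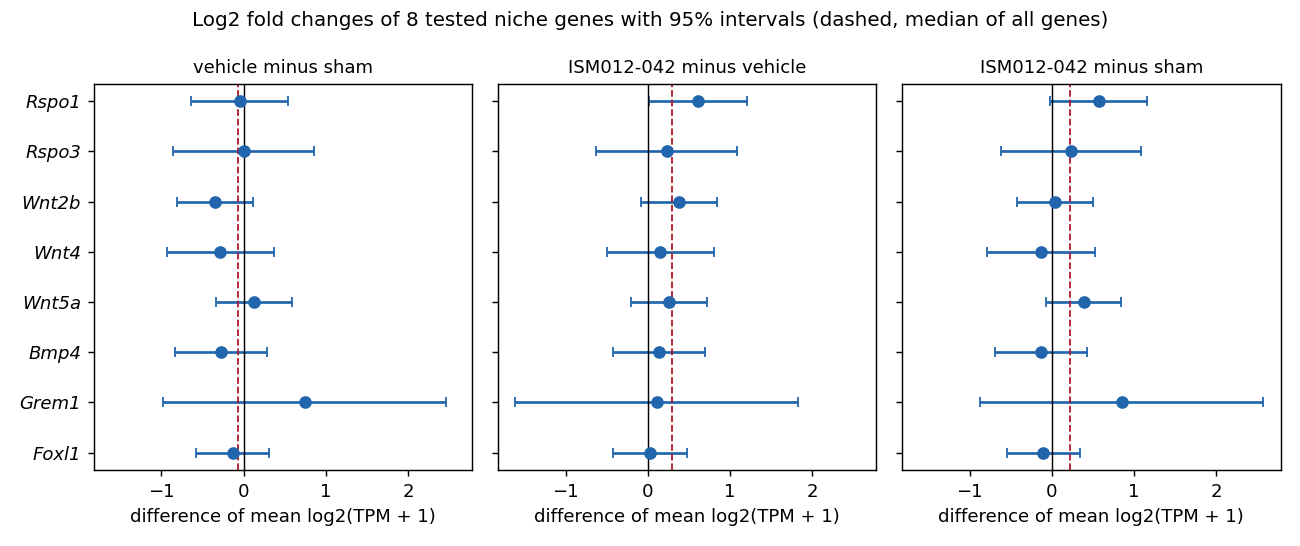
Difference of mean log2(TPM + 1) of the 8 tested niche genes in 3 comparisons, with bars for the 95% interval and a dashed line at the median of all tested genes. Every interval includes 0 except that of Rspo1 for ISM012-042 minus vehicle, 0.02 to 1.21, and the intervals of Grem1 are the widest of the 8.

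Among the R-spondins, Rspo1 (chromosome 4, 124986401 to 125009102, plus strand of RefSeq GRCm38.p6) gave the one unadjusted difference. Its lowest, median and highest levels were 2.29, 2.41 and 4.42 TPM under ISM012-042, 0.66, 1.37 and 5.70 TPM under vehicle, and 0.65, 1.87 and 2.44 TPM in sham. The 6 ISM012-042 libraries all lay above the medians of both other groups, while vehicle replicate 4 exceeded all of them. The log2 fold change was 0.61 ± 0.28 (SE, n = 6 each) for ISM012-042 against vehicle, with an unadjusted p of 0.0433 and an adjusted p of 0.255, which does not pass. Without vehicle replicate 4 it was 0.89 ± 0.22 (limma adjusted p = 0.258). Over the alternatives the adjusted p was never below 0.196, and the value was 0.38 with median-ratio scaling. Against sham the log2 fold change under ISM012-042 was 0.57 ± 0.28 (limma adjusted p = 0.256), and for vehicle against sham it was -0.048 ± 0.284 (limma adjusted p = 0.954).

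Across libraries Rspo1 went more closely with mesothelium markers than with fibroblast markers. Its Spearman's rho over the 18 libraries was 0.719 with the mean of 8 mesothelium markers and 0.391 with that of the fibroblast markers, a description of libraries that share tissue make-up and scaling. Wnt5a was near it with the mesothelium markers (0.686). Within the 12 TNBS libraries the rho with them was 0.839 for Rspo1, 0.643 for Wnt2b, 0.622 for Wnt5a and 0.608 for Bmp4. The genes of pattern most similar to Rspo1 were Arhgef10 (rho 0.837), Gpm6a (0.822) and Tmem198b (0.796), and Gpm6a is itself one of the mesothelium markers. All 7 tested mesothelium markers had positive log2 fold changes for ISM012-042 against sham, with a median of 0.92, and 6 of 7 with median-ratio scaling. Of these 0 passed, and 4 had an unadjusted p under 0.05, beside 20.8% of all genes. Krt19, a keratin that epithelium also makes, held nearly all of the summed TPM of the 8 markers. Without it, a choice made after the data were seen, the other 7 summed to 29.7 to 66.6 TPM under ISM012-042, 11.7 to 53.3 TPM under vehicle and 6.13 to 26.6 TPM in sham. The ISM012-042 sums of those 7 lay wholly above sham, and the share of all genes that separate in this way was not counted. The rho of Rspo1 with the mean of those 7 was 0.709, and 0.705 with Gpm6a also left out. The part of mesothelium in the Rspo1 values was not tested.

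Rspo3 (chromosome 10, 29453106 to 29535867, minus strand), the R-spondin most studied in mouse gut stroma, was at 1.68, 2.29 and 19.1 TPM (lowest, median, highest) under ISM012-042, 1.13, 2.32 and 6.14 TPM under vehicle, and 2.05, 2.61 and 3.50 TPM in sham. The medians were close together, and ISM012-042 replicate 2 and vehicle replicate 2 were the highest libraries. Rspo3 had a log2 fold change of 0.23 ± 0.41 for ISM012-042 against vehicle (limma adjusted p = 0.696), and -0.22 ± 0.26 without that library (adjusted p = 0.649). Vehicle and sham had equal means on the log scale, with a 95% interval of -0.86 to 0.86. Rasl12 (rho 0.889), Ptger2 (0.858) and Rcan1 (0.849) had the most similar pattern over the 18 libraries.

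Rspo2 (chromosome 15, 43020788 to 43171594, minus strand) was near the lower end of detection. It was at 0.17, 0.23 and 0.26 TPM under ISM012-042, 0.028, 0.20 and 0.40 TPM under vehicle, and 0.081, 0.14 and 0.25 TPM in sham (lowest, median, highest). The groups overlapped, and no library reached 1 TPM. An exact two-sided permutation test, 1 of 3 run for this gene, gave p = 0.0476 for ISM012-042 against sham (difference in mean log2(TPM + 1) 0.078) and, with median-ratio scaling, p = 0.221. The same exact test gave p = 0.621 for ISM012-042 against vehicle and p = 0.524 for vehicle against sham. Its levels followed the 9 enteric neuron and glia markers across libraries (rho 0.796 over 18, 0.803 over 16 without replicates 2 of ISM012-042 and vehicle).

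Of the WNT ligands, Wnt2b (chromosome 3, 104944805 to 104961709, minus strand), which signals through beta-catenin, was at 2.48, 3.09 and 6.94 TPM under ISM012-042, 1.72, 2.14 and 5.46 TPM under vehicle, and 3.01, 3.49 and 4.42 TPM in sham (lowest, median, highest). In 4 of the 6 vehicle libraries it was below every sham library, and vehicle replicate 4 was above all of them. The log2 fold change was -0.35 ± 0.22 for vehicle against sham (limma adjusted p = 0.437) and 0.38 ± 0.22 for ISM012-042 against vehicle (adjusted p = 0.307). Wnt2b followed the 8 smooth muscle markers across libraries (rho 0.785 over 18). The rho was 0.480 with each group centred on its mean, 0.783 within the 12 TNBS libraries and -0.257 within the 6 sham libraries. Those markers had a median log2 fold change of -0.69 for vehicle against sham, with 8 of 8 negative and 0 passing, and a summed level of 1499 to 5316 TPM under ISM012-042, 1546 to 5281 TPM under vehicle and 2313 to 4773 TPM in sham. With their mean as a covariate, the Wnt2b difference for vehicle against sham was -0.061 ± 0.208 and that for ISM012-042 against vehicle 0.20 ± 0.19. Fbln1 (rho 0.922), itself one of the fibroblast markers, Kank2 (0.915) and Angptl2 (0.913) had the pattern most like that of Wnt2b.

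Wnt4 (chromosome 4, 137277635 to 137299501, plus strand), a ligand with both beta-catenin and other signalling roles, was at 0.42, 1.32 and 5.84 TPM under ISM012-042, 0.37, 1.58 and 2.18 TPM under vehicle, and 1.11, 1.94 and 3.07 TPM in sham. The sham libraries did not go below 1 TPM, while 2 ISM012-042 libraries and 1 vehicle library did. The log2 fold change was 0.15 ± 0.31 for ISM012-042 against vehicle (limma adjusted p = 0.736), -0.12 ± 0.25 without ISM012-042 replicate 2, and -0.28 ± 0.31 for vehicle against sham (limma adjusted p = 0.692). Of the 9 genes Wnt4 followed Hoxb13 most closely, with a rho of 0.845 over 18 libraries, 0.916 within the 12 TNBS libraries and 0.600 within the 6 sham libraries. With the mitochondrial share of the TPM its rho was -0.552 over 18, -0.839 within the 12 and 0.543 within the 6. In libraries with Hoxb13 above 5 on the log2 scale Wnt4 ranged over 0.81 to 5.84 TPM (ISM012-042), 1.74 to 2.18 TPM (vehicle) and 1.56 to 3.07 TPM (sham). In the others it ranged over 0.42 to 1.21 TPM (ISM012-042), 0.37 to 1.41 TPM (vehicle) and 1.11 to 1.17 TPM (sham). Mrpl14 (rho 0.903), B3gnt7 (0.901) and Tmem254b (0.901) had the most similar pattern.

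Wnt5a (chromosome 14, 28504543 to 28527448, plus strand), a ligand known mainly for signalling outside beta-catenin, was at 3.13, 5.09 and 8.83 TPM under ISM012-042, 2.52, 4.30 and 6.81 TPM under vehicle, and 2.56, 3.80 and 5.20 TPM in sham. Its medians were ordered by group but the ranges overlapped throughout. Wnt5a had a log2 fold change of 0.39 ± 0.22 for ISM012-042 against sham (limma adjusted p = 0.304), with 5 of 6 ISM012-042 libraries above the sham median. It was 0.26 ± 0.22 for ISM012-042 against vehicle (limma adjusted p = 0.434) and 0.12 ± 0.22 for vehicle against sham (adjusted p = 0.822). Wnt5a followed fibroblast (rho 0.814), endothelium (0.806) and macrophage markers (0.744) over 18 libraries, while its rho with Hoxb13 was 0.203 over 18 and 0.622 within the 12 TNBS libraries. Pelp1 (0.945), Ephb2 (0.940) and Pelo (0.938) had the pattern most like that of Wnt5a.

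**Figure D3:**
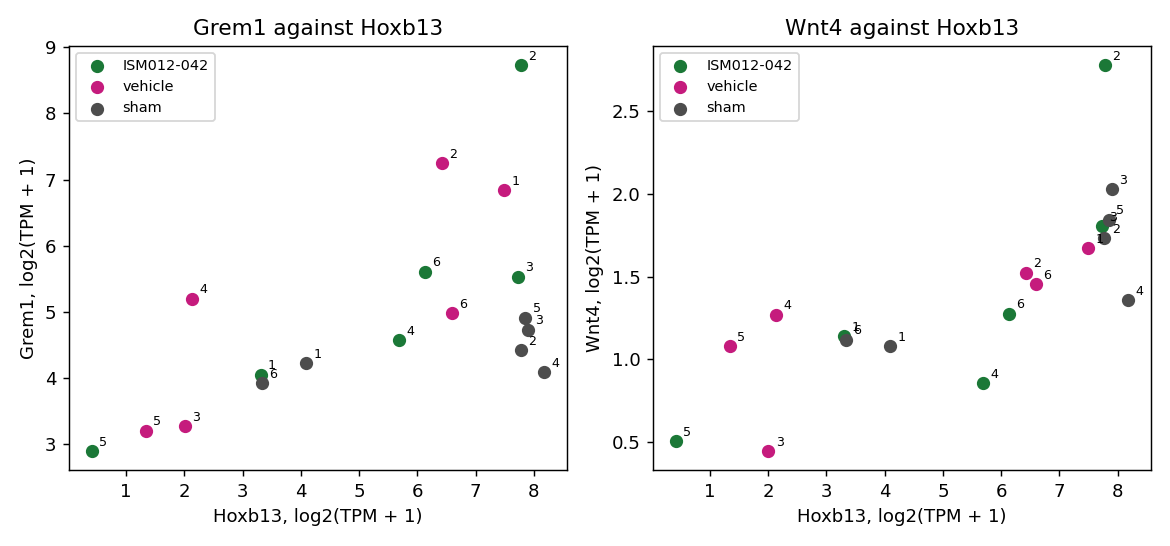
Log2(TPM + 1) of Grem1 (left) and Wnt4 (right) against that of Hoxb13, a gene of the distal hindgut, with 1 point per library, its replicate number beside it and its group in colour. Wnt4 goes up with Hoxb13 over all 18 libraries (rho 0.845). At Hoxb13 above 5, a subset chosen after the data were seen, the 3 vehicle points of Grem1 lie above the 4 sham points. That difference did not pass by limma, where 9.25% of all genes did, and the share of all genes that separate there was not counted.

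Grem1 (chromosome 2, 113748675 to 113758648, minus strand), the secreted BMP antagonist, was the most variable of the niche genes. It was at 6.43, 34.0 and 423 TPM under ISM012-042, 8.18, 33.1 and 151 TPM under vehicle, and 14.1, 19.0 and 29.1 TPM in sham (lowest, median, highest). The TNBS groups reached both above and below the sham range, with 423 TPM in ISM012-042 replicate 2 and 151 and 114 TPM in vehicle replicates 2 and 1. The SD of log2(TPM + 1) was 1.99 under ISM012-042, 1.71 under vehicle and 0.38 in sham, a difference in spread that was not tested. The log2 fold change was 0.74 ± 0.82 for vehicle against sham (limma adjusted p = 0.697) and 0.85 ± 0.82 for ISM012-042 against sham (adjusted p = 0.522). Without vehicle replicate 2 the first was 0.32, and without ISM012-042 replicate 2 the second was 0.15. For ISM012-042 against vehicle it was 0.11 ± 0.82 (limma adjusted p = 0.929), and -0.59 ± 0.67 without ISM012-042 replicate 2 (adjusted p = 0.637).

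The wide spread of Grem1 within the TNBS groups went with stromal markers, with the position marker and, inversely, with the mitochondrial share of the TPM. Within the 12 TNBS libraries its rho was 0.902 with lymphatic endothelium markers, 0.888 with fibroblast markers and 0.853 with Hoxb13. For Hoxb13 it was 0.855 in the 10 left without replicates 2 of both groups. With the mitochondrial share it was -0.832 in the 12 and -0.709 in the 10. Grem1 also went with inflammatory cell markers, less closely. Its rho with macrophage markers was 0.692 in the 12 and 0.515 in the 10, and with neutrophil markers 0.594 and 0.309. The part of each in the Grem1 values was not tested. In the libraries with Hoxb13 above 5, a subset chosen after the data were seen, Grem1 was at 22.8 to 423 TPM in 4 ISM012-042 libraries, 30.5 to 151 TPM in 3 vehicle libraries and 16.0 to 29.1 TPM in 4 sham libraries. The vehicle and sham values did not overlap there, but the difference did not pass (log2 fold change 1.82 ± 0.87, limma adjusted p = 0.19, where 9.25% of genes passed in that subset). The share of all genes that separate in that subset was not counted. With Hoxb13 as a covariate in all 18 libraries, the log2 fold change was 1.70 ± 0.59 for vehicle against sham (adjusted p = 0.105) and 1.44 ± 0.57 for ISM012-042 against sham (adjusted p = 0.0879). With that covariate 4.38% and 9.76% of all genes passed in these comparisons. Over all alternatives the adjusted p for vehicle against sham was never below 0.0521. In the libraries with Hoxb13 below 5 the vehicle against sham difference was -0.18.

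Bmp4 (chromosome 14, 46383525 to 46390669, minus strand), the BMP ligand of the set, varied far less. It was at 10.1, 19.6 and 31.7 TPM under ISM012-042, 10.8, 16.3 and 32.5 TPM under vehicle, and 14.1, 21.9 and 29.6 TPM in sham. The groups overlapped over most of their ranges, with vehicle replicate 4 and ISM012-042 replicate 2 the highest libraries. Bmp4 had a log2 fold change of 0.14 ± 0.27 for ISM012-042 against vehicle (limma adjusted p = 0.719), -0.13 ± 0.27 for ISM012-042 against sham (adjusted p = 0.765) and -0.27 ± 0.27 for vehicle against sham (adjusted p = 0.652). Fam198b (rho 0.922), Loxl1 (0.893) and Afap1l2 (0.880) had the most similar pattern over the 18 libraries, and those nearest Grem1 were Josd2 (0.917), Cmtm7 (0.915) and Pagr1a (0.915).

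Set against each other within a library, the antagonist and the ligand were balanced in sham and uneven in the TNBS groups. The log2 ratio of Grem1 to Bmp4, each with 1 TPM added, was lowest at -0.57, median 0.81 and highest at 3.70 under ISM012-042, -0.65, 0.57 and 3.01 under vehicle, and -0.36, -0.12 and 0.31 in sham. Grem1 exceeded Bmp4 in 4 of 6 ISM012-042, 4 of 6 vehicle and 2 of 6 sham libraries. The mean ratio was 0.93 ± 1.52 under ISM012-042, 0.96 ± 1.53 under vehicle and -0.051 ± 0.259 in sham (SD, n = 6 each), so the group means differed by less than the spread within the TNBS groups. No test was run on this ratio, which does not depend on how libraries are scaled to each other apart from the added 1 TPM.

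The 250 bases upstream of the start site are given for Grem1, Bmp4 and Wnt4, since Grem1 and Bmp4 are the antagonist and ligand of this balance and Wnt4 moved with both across libraries (rho 0.701 with Grem1 and 0.765 with Bmp4). The compound acts on the hypoxia pathway, so the hypoxia response core, ACGTG or GCGTG on either strand, is in capitals. Sequences are from RefSeq, GRCm38.p6, read 5′ to 3′ on the strand of the gene: chr2:113758649-113758898 minus for Grem1, chr14:46390670-46390919 minus for Bmp4 and chr4:137277385-137277634 plus for Wnt4.
Grem1: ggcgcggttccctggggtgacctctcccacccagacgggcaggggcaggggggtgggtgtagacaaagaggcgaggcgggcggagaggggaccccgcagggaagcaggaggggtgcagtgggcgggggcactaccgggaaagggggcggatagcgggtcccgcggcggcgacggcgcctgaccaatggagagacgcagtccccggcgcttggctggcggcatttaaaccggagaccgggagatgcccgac
Bmp4: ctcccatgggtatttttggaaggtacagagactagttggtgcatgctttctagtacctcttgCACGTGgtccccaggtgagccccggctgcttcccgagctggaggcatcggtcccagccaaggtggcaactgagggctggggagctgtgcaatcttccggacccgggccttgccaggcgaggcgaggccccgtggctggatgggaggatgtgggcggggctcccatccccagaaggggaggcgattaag
Wnt4: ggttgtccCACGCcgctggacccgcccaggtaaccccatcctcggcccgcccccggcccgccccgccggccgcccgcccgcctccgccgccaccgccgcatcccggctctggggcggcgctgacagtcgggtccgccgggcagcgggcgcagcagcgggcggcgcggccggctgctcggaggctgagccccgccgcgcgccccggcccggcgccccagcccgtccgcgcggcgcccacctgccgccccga
Positions count back from the start site. Bmp4 carried 1 palindrome that matches on both strands, with first bases at -188 and -187, Wnt4 carried 1 match at -242, and Grem1 carried none. RefSeq promoters were matched for 5 of the 9 genes, and Wnt2b (at -92) and Rspo1 also held 1 match each. The Rspo1 window ends at 124986429 and so is set by a start site other than the gene start given above. The core is short, and 38.6% of all 32851 promoters of the same length hold it. The GLI core TGGGTGGTC, the TCF/LEF cores CTTTGAA and CTTTGAT and the forkhead core TGTTTAC, on either strand, were in none of the 5 and in 0.225%, 7.48% and 3.17% of all promoters. A match describes letters only and says nothing of whether a factor binds.

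Foxl1 (chromosome 8, 121127685 to 121130644, plus strand), the telocyte transcription factor, was just above the level needed for a test, with 6 of 18 libraries at or above 1 TPM. It was at 0.31, 0.68 and 2.02 TPM under ISM012-042, 0.45, 0.95 and 1.06 TPM under vehicle, and 0.43, 1.02 and 1.73 TPM in sham. The vehicle range lay within those of both the ISM012-042 and the sham group. Foxl1 had a log2 fold change of 0.029 ± 0.213 for ISM012-042 against vehicle (limma adjusted p = 0.927), -0.10 ± 0.21 for ISM012-042 against sham (adjusted p = 0.768) and -0.13 ± 0.21 for vehicle against sham (adjusted p = 0.801). With array weights Foxl1 and Wnt4 were at -0.48 and -0.55 for ISM012-042 against sham. Their limma adjusted p there were 0.0502 and 0.0531, the lowest of their alternatives. In that fit 23.1% of all genes passed, beside 1.42% without the weights, and these 2 genes did not. Foxl1 followed Wnt4 (rho 0.839), Bmp4 (0.740) and Hoxb13 (0.713) over the 18 libraries, and Syt13 (0.922), Rgs3 (0.876) and Rgs14 (0.862) were its nearest genes.

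The niche genes were also set against the markers of the cells they are named for. The 10 fibroblast markers were above 0 in every library, and their mean had a rho of 0.814 with Wnt5a, 0.808 with Grem1, 0.792 with Bmp4, 0.769 with Wnt4, 0.763 with Rspo3 and with Foxl1, 0.567 with Wnt2b, 0.391 with Rspo1 and -0.102 with Rspo2 over 18 libraries. Without replicates 2 of ISM012-042 and vehicle, the rho was 0.735 for Wnt5a and for Wnt4, 0.726 for Grem1 and 0.662 for Rspo3. With epithelium markers the rho of the 9 genes ran from -0.261 to 0.135. Summed fibroblast markers were at 481 to 3643 TPM under ISM012-042, 308 to 1047 TPM under vehicle and 472 to 799 TPM in sham, and 0 of 10 passed in any comparison. With their mean as a covariate, Grem1 was at 1.01 for vehicle against sham (limma adjusted p = 0.0708) and -0.76 for ISM012-042 against vehicle (adjusted p = 0.307). In that fit 8.37% and 0% of all genes passed in these comparisons. Grem1 was closest to the 6 lymphatic endothelium markers (rho 0.868, and 0.821 over 16 libraries).

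**Figure D4:**
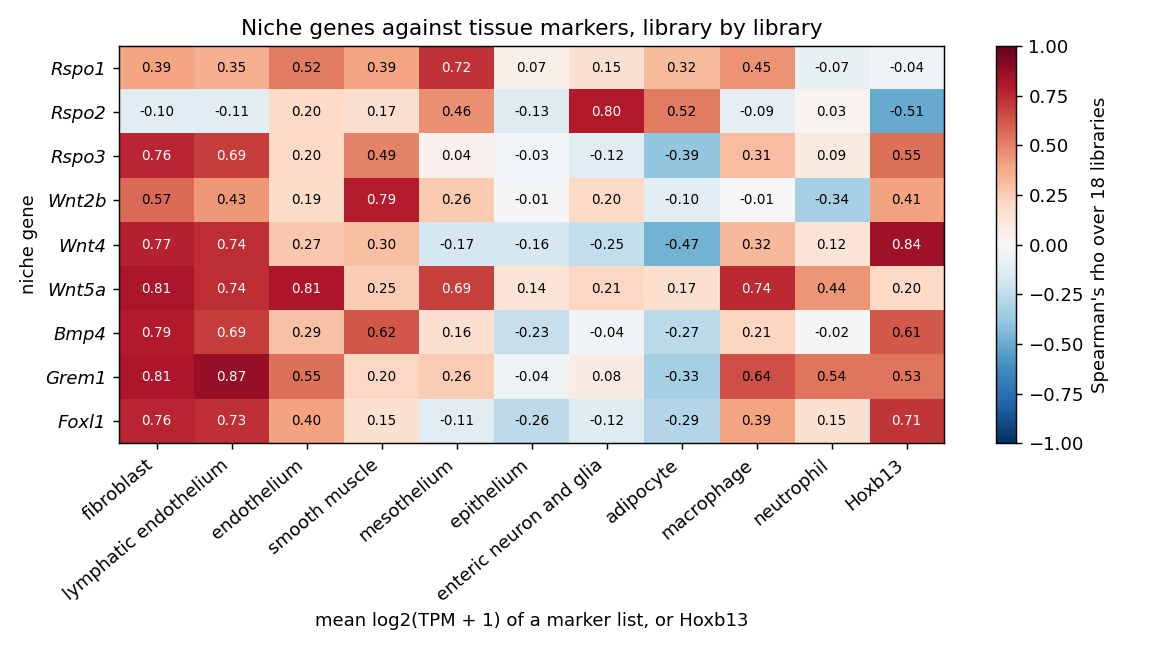
Spearman's rho over 18 libraries between each niche gene (rows) and the mean log2(TPM + 1) of a marker list or of Hoxb13 (columns), red for positive and blue for negative. Rspo3, Wnt4, Wnt5a, Bmp4, Grem1 and Foxl1 are at 0.763 or above with fibroblast markers, Wnt2b is highest with smooth muscle (0.785), Rspo1 with mesothelium (0.719) and Rspo2 with enteric neuron and glia markers (0.796).

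Around the niche genes, 9 lists of WNT, BMP and hedgehog pathway genes held 111 genes, of which 76 were tested. In vehicle against sham 4 of them passed (5.26%, near the 4.46% of all genes), all lower. With median-ratio scaling 4 passed as higher and 8 as lower (15.8%, beside 10.7% of all genes). In the other comparisons 0 passed by limma. With median-ratio scaling 1 passed as higher and 3 as lower for ISM012-042 against sham (5.26%, beside 5.46% of all genes). Of 6 tested BMP ligands other than Bmp4, 4 had negative log2 fold changes for vehicle against sham. Bmp2, made largely by the upper epithelium, was the 1 that passed. It was at 4.76, 9.79 and 19.2 TPM under ISM012-042, 5.86, 7.71 and 15.5 TPM under vehicle, and 10.6, 33.1 and 46.5 TPM in sham. In 4 of 6 sham libraries it was above every vehicle and ISM012-042 library. In vehicle against sham it fell by 1.503 ± 0.356 on the log2 scale (limma adjusted p = 0.0215), and for ISM012-042 against sham the value was -1.25 ± 0.36 (adjusted p = 0.0852). Leaving out vehicle 4 or 5 or sham 2, 4 or 5 took the vehicle against sham call to an adjusted p of 0.0521 to 0.0586.

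All 6 BMP target genes on the list had negative log2 fold changes for vehicle against sham, also under each of 3 other scalings, with a median of -0.51 beside -0.067 over all genes, and 2 of 6 passed, where 4.46% of all genes did. Epithelium and smooth muscle markers were also mostly negative in that comparison. Each of the other marker lists held more positive than negative values, such as endothelium (7 of 7), enteric neuron and glia (9 of 9) and macrophage (8 of 8). Epithelium markers were negative in 6 of 8 (median -0.40, 0 passing, 3 with an unadjusted p under 0.05, beside 18.1% of all genes). Their sums were 7669 to 9733 TPM under ISM012-042, 4942 to 11230 TPM under vehicle and 6985 to 11840 TPM in sham. Smooth muscle markers were negative in 8 of 8. The part of epithelium in the BMP target values was not tested. Smad7, an inhibitory SMAD that feeds back on BMP and TGF-beta signalling, was at 8.59 to 14.1 TPM in vehicle libraries, all below the sham range of 17.2 to 24.2 TPM. It fell by 0.80 ± 0.14 on the log2 scale (limma adjusted p = 0.00469) and passed in 30 of 30 alternatives. Smad6, the inhibitory SMAD more specific to BMP, was at 2.85 to 4.57 TPM in vehicle libraries, all below the sham range of 5.12 to 9.71 TPM, and fell by 0.72 ± 0.15 (limma adjusted p = 0.012). It passed in 27 of 30 alternatives. Its adjusted p was 0.0581 with array weights, 0.05 with the smooth muscle covariate and 0.124 within libraries of high Hoxb13. Id1, Id2, Id3 and Id4, inhibitors of differentiation induced by BMP, were at -0.47, -0.22, -0.39 and -0.54 and did not pass.

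In ISM012-042 libraries Smad7 was at 10.97 to 17.66 TPM and Smad6 at 5.29 to 7.13 TPM. The Smad6 values lay wholly above those of vehicle, with a log2 fold change of 0.55 ± 0.15 for ISM012-042 against vehicle (limma unadjusted p = 0.00213, adjusted p = 0.233, where 0% of genes passed). In that comparison 92.1% of all genes were positive, with a median of 0.295, and 0.013 with median-ratio scaling. The median of the 6 BMP target genes was 0.378, and 0.062 with that scaling. The share of all genes whose groups separate was not counted, here or for vehicle against sham. Smad7 under ISM012-042 was at -0.41 ± 0.14 against sham (limma adjusted p = 0.135).

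**Figure D5:**
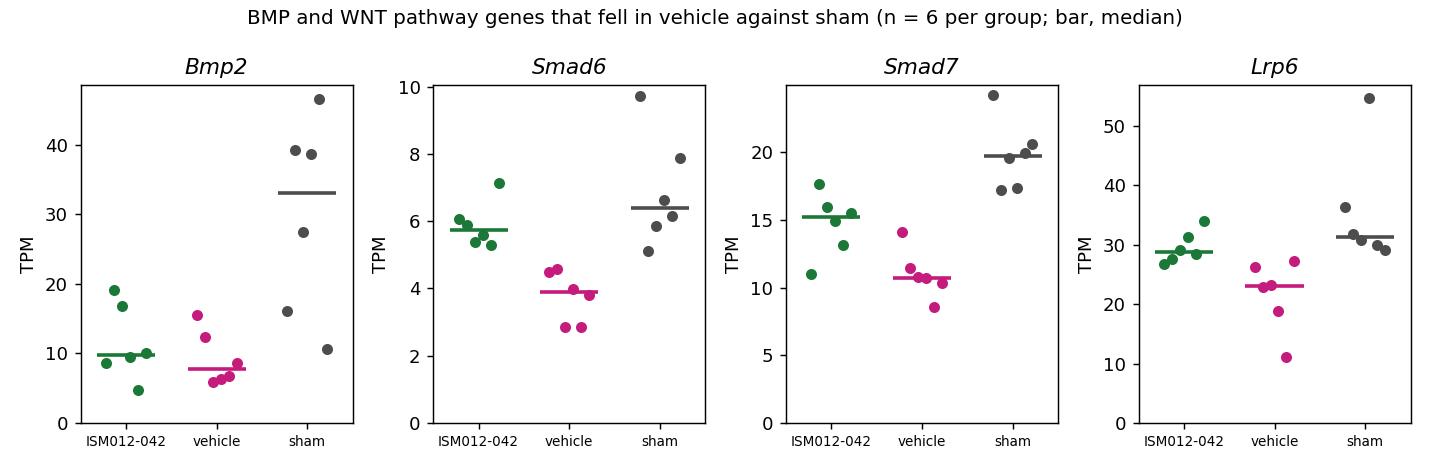
TPM of Bmp2, Smad6, Smad7 and Lrp6 in every library, with 6 libraries in each of the ISM012-042, vehicle and sham groups and a bar at the group median. Vehicle libraries of Smad6 and Smad7 lie wholly below sham, and ISM012-042 libraries of Smad6 lie wholly above vehicle. The share of all genes that separate in this way was not counted, and 92.1% of all genes were positive for ISM012-042 against vehicle.

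On the WNT receiving side, Lrp6, a co-receptor for WNT ligands, was the 1 of 18 tested secretion, receptor and ubiquitin ligase genes that passed. That count is near the 4.46% of all genes that passed in vehicle against sham. With median-ratio scaling 2 passed as higher and 4 as lower, where 10.7% of all genes passed. Lrp6 was at 26.8, 28.7 and 34.0 TPM under ISM012-042, 11.1, 23.1 and 27.4 TPM under vehicle, and 29.1, 31.4 and 54.8 TPM in sham. The vehicle libraries lay wholly below sham, and the share of all genes that separate in this way was not counted. Lrp6 fell by 0.71 ± 0.19 on the log2 scale (limma adjusted p = 0.0431) in vehicle against sham. The call was not firm, since it passed in 14 of 30 alternatives with an adjusted p of up to 0.138, and was lost on leaving out vehicle 2, 3, 4 or 5 or sham 1, 2, 4 or 5. Lgr4, an R-spondin receptor, averaged 36.3 ± 21.9 TPM in vehicle and 63.1 ± 17.4 TPM in sham libraries (SD, n = 6 each; limma adjusted p = 0.0817). In ISM012-042 against sham the lowest p of the list were those of Lrp5 (log2 fold change 0.89 ± 0.24, adjusted p = 0.0665) and Fzd4 (1.03 ± 0.32, adjusted p = 0.115).

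None of the remaining lists held a gene that passed by limma with the values as deposited. Of 17 other WNT and R-spondin ligands only Wnt5b was tested, at 0.61 to 2.28 TPM under ISM012-042, 0.593 to 1.5 TPM under vehicle and 0.78 to 1.29 TPM in sham, and the other 16 averaged at most 0.74 TPM. Of 13 tested WNT target genes 9 were positive for vehicle against sham and 2 had an unadjusted p under 0.05, beside 18.1% of all genes. With median-ratio scaling 1 passed as higher and 1 as lower, where 10.7% of all genes passed. Axin2, a feedback inhibitor and common readout of WNT signalling, averaged 3.77 ± 1.41 TPM in vehicle and 5.92 ± 1.59 TPM in sham (limma adjusted p = 0.139), and Cd44, a receptor for hyaluronan, averaged 42.0 ± 36.0 TPM in vehicle and 16.4 ± 4.26 TPM in sham (adjusted p = 0.151). Under ISM012-042 Axin2 averaged 5.92 ± 1.16 TPM, with an adjusted p of 0.233 against vehicle.

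Of 9 tested BMP antagonists other than Grem1, 4 had an unadjusted p under 0.05 for vehicle against sham, as did 18.1% of all tested genes. With median-ratio scaling 1 passed as higher, where 10.7% of all genes passed. Bmper, a secreted BMP-binding protein, averaged 2.26 ± 1.25 TPM in vehicle and 0.45 ± 0.14 TPM in sham libraries, which did not overlap (limma adjusted p = 0.117, where 4.46% of genes passed). Chrdl1, a chordin-like antagonist, averaged 2.81 ± 1.65 TPM in vehicle and 4.49 ± 1.06 TPM in sham (limma adjusted p = 0.186), and 5.24 ± 1.52 TPM under ISM012-042 (adjusted p = 0.233 against vehicle). Chrd, or chordin, averaged 3.70 ± 1.78 TPM under ISM012-042 and 1.79 ± 0.42 TPM in sham (limma adjusted p = 0.101).

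All 9 tested BMP receptors and SMADs had negative log2 fold changes for vehicle against sham, also under each of 3 other scalings. Their median was -0.30, beside -0.067 over all genes, of which 41.3% were positive in that comparison. Of the 9, 0 passed by limma and 0 had an unadjusted p under 0.05. Acvr2a, a type II receptor, had the lowest unadjusted p among them (log2 fold change -0.40 ± 0.20, limma adjusted p = 0.301). Of 6 tested secreted WNT inhibitors 6 were negative in the same comparison, and 5 under each of the other scalings. Dkk3, a Dickkopf family member, averaged 9.63 ± 3.20 TPM in vehicle and 11.9 ± 1.24 TPM in sham (limma adjusted p = 0.492). In the hedgehog list, Hhip, a hedgehog-binding protein, averaged 1.24 ± 0.31 TPM in vehicle and 2.45 ± 0.93 TPM in sham (limma adjusted p = 0.0978), and Ihh, the epithelial ligand that acts on gut stroma, averaged 29.1 ± 6.70 TPM in vehicle and 39.5 ± 5.42 TPM in sham (adjusted p = 0.0991). In that list 4 of 8 tested genes had an unadjusted p under 0.05 for vehicle against sham, beside the 18.1% of all genes.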

How the data were processed

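Per the labels' protocols, TRI Reagent and RNeasy were used for RNA and FastKing for reverse transcription. The authors deposited TPM per gene symbol, made with DRAGEN 4.0.3 on mm10 per the submitters' processing notes; the sources used here give no annotation, strandedness or read depth. Rspo1, Rspo3, Wnt2b, Wnt5a, Bmp4 and Foxl1 overlap other annotated genes, so their reads may not be separable.

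Genes at 1 TPM or more in at least 6 of 18 libraries (14129) were tested on log2(TPM + 1) with limma 3.58.1 in R 4.3.3, trend and robust empirical Bayes, all libraries in 1 fit, and Benjamini-Hochberg adjustment over all genes. Fold changes on this scale understate changes of low genes. Rspo2 had an exact permutation test. The fit was tested on simulated data. The 9 genes and all lists were chosen with earlier results of these data known. Named genes were drawn from the 9 genes, the passing genes of each list (at most 4 per comparison, filled up to 2 by lowest unadjusted p), and 3 genes of similar pattern per tested niche gene by Spearman's rho, leaving out Gm and Rik symbols; a few more were named after their values were seen. Alternatives covered pseudocount, filter, scaling, weights, block, covariates and left-out libraries.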

Additional observations from a re-analysis of the deposited data

Results flagged for a closer look

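Rspo1 was at 5.70 TPM in vehicle replicate 4, while the other vehicle libraries were at 0.66 to 1.52 TPM. Rspo3 was at 19.1 TPM in ISM012-042 replicate 2, while the other ISM012-042 libraries were at 1.68 to 2.72 TPM. In each case the gap to the nearest library, taken on log2(TPM + 1), was a larger part of the group's range than Dixon's 95% critical value for 6 samples. Of 30 sets of 6 libraries checked 2 were marked in this way, and chance marks about 5%. Grem1 at 423 TPM in ISM012-042 replicate 2 was not marked on that log scale. Gaps in TPM itself were not checked and can mark other libraries.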

How the results depend on the processing

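None of the 8 niche genes tested with limma passed in any comparison under the alternatives run. The replicate numbers of the groups did not pair the libraries (correlations of same-numbered libraries from -0.38 to 0.609, their own number best for 2 of 18), and with the replicate block 0 of the 8 passed, while all genes passing numbered 554, 0 and 109 against 630, 0 and 200 without it, for vehicle against sham, ISM012-042 against vehicle and ISM012-042 against sham. Genes passing in vehicle against sham numbered 1515 with median-ratio scaling, 1469 with quantile normalization, 1332 without mitochondrial genes and 361 with only the 2 groups in the fit. For ISM012-042 against sham they numbered 772, 803, 1132 and 709, and 3260 with array weights. Group differences in the Grem1 to Bmp4 ratio moved by less than the spread within groups. That spread was wide because of the TNBS groups (SD 1.52 under ISM012-042 and 1.53 under vehicle, against 0.259 in sham). The group means differed by less than it, so this does not show that the differences hold when a library is left out. For Rspo2, median-ratio scaling gave a difference of -0.055 for ISM012-042 against vehicle, a turned sign, and of 0.042 (exact permutation p = 0.221) for ISM012-042 against sham, against p = 0.0476 as deposited. The cause of these changes was not tested.

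Signs of niche gene log2 fold changes that do not pass turned in 109 recomputed values (26 with 1 library left out). For vehicle against sham, the turned values were as follows: Rspo3 -0.046 with pseudocount 0.1, Rspo1 0.006 with pseudocount 5, 0.035 with median-ratio scaling, 0.044 with quantile normalization, 0.024 without mitochondrial genes and 0.28 with the smooth muscle covariate, which also gave Bmp4 0.082. The Hoxb13 covariate gave Wnt4 0.077 and Foxl1 0.074, and with median-ratio scaling 0.026 and 0.046. Libraries with Hoxb13 below 5 gave Rspo1 0.021, Rspo3 -0.35, Wnt5a -0.11, Grem1 -0.18, Bmp4 0.22 and Foxl1 0.18. Without replicates 2 of ISM012-042 and vehicle, Rspo3 was -0.20.

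For ISM012-042 against vehicle, median-ratio scaling gave Rspo3 -0.001, Wnt4 -0.048, Wnt5a -0.009, Grem1 -0.20, Bmp4 -0.17 and Foxl1 -0.14. Quantile normalization gave Rspo3 -0.020, Wnt4 -0.14, Wnt5a -0.062, Grem1 -0.14, Bmp4 -0.17 and Foxl1 -0.21. Leaving out mitochondrial genes gave Grem1 -0.043, Bmp4 -0.013 and Foxl1 -0.082. Pseudocount 0.1 gave Foxl1 -0.045. Array weights gave Rspo3 -0.37, Wnt4 -0.34, Grem1 -1.05, Bmp4 -0.066 and Foxl1 -0.24. The Hoxb13 covariate gave Grem1 -0.26 and Foxl1 -0.051, and with median-ratio scaling Rspo3 -0.081, Wnt4 -0.16, Wnt5a -0.022, Grem1 -0.52, Bmp4 -0.21 and Foxl1 -0.19. The smooth muscle covariate gave Grem1 -0.24, Bmp4 -0.088 and Foxl1 -0.009, and the fibroblast covariate Rspo3 -0.18, Wnt4 -0.16, Grem1 -0.76, Bmp4 -0.11 and Foxl1 -0.15. Libraries with Hoxb13 above 5 gave Grem1 -0.25, and those below 5 Rspo3 -0.002, Wnt2b -0.11, Wnt4 -0.11, Grem1 -0.42, Bmp4 -0.26 and Foxl1 -0.12. Without replicates 2 of ISM012-042 and vehicle, Rspo3 was -0.022, Wnt4 -0.068, Grem1 -0.17 and Foxl1 -0.091.

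For ISM012-042 against sham, Wnt2b was -0.14 with median-ratio scaling, -0.22 with quantile normalization, -0.014 without mitochondrial genes, -0.10 with array weights, -0.078 with the fibroblast covariate, -0.23 in libraries with Hoxb13 below 5, -0.12 without replicates 2 of ISM012-042 and vehicle and -0.18 with Hoxb13 and median-ratio scaling. Rspo3 was -0.16 with array weights, -0.053 with the fibroblast covariate, -0.35 in libraries with Hoxb13 below 5 and -0.22 without replicates 2 of ISM012-042 and vehicle. The Hoxb13 covariate gave Wnt4 0.090, Bmp4 0.007 and Foxl1 0.023, and libraries with Hoxb13 below 5 gave Grem1 -0.60 and Foxl1 0.053.

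With 1 library left out at a time, values that crossed 0 ranged, for vehicle against sham, from -0.32 to 0.079 (Rspo1) and -0.20 to 0.15 (Rspo3). For ISM012-042 against vehicle they ranged from -0.22 to 0.43 (Rspo3), -0.12 to 0.33 (Wnt4), -0.59 to 0.575 (Grem1), -0.007 to 0.32 (Bmp4) and -0.11 to 0.13 (Foxl1). For ISM012-042 against sham they ranged from -0.22 to 0.36 (Rspo3), -0.12 to 0.11 (Wnt2b), -0.41 to 0.044 (Wnt4) and -0.28 to 0.033 (Bmp4). Subsets by Hoxb13, the fit without replicates 2 and the Hoxb13 covariate with median-ratio scaling were chosen after seeing the data.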
